A study of Homo sapiens with 6 samples.

Results

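The myeloid C-type lectin receptors described here are 7 genes: CLEC7A, CLEC4D, CLEC4E and CLEC5A, OLR1, and CLEC4A and CLEC12A. They were represented by 6 windows of hg19, 1 per gene except that CLEC4D and CLEC4E share one, and every H3K27ac peak overlapping a window counted as a member. The windows are fixed positions, but genes and windows were chosen with earlier results of these data known. That choice limits every comparison with the genome below. The windows held 16 of the 56420 M2 peaks and 3 of the 31444 THP-1 peaks, 19 of 87864 in all. In more than 1 window lay 0 peaks. The study compared M2 macrophages with THP-1, a line grown from a human monocytic leukaemia, by chromatin immunoprecipitation and sequencing, with both cultured in the same serum-containing RPMI medium. Its 6 libraries were 1 each of H3K27ac, the transcription factor YY1 and input per cell type, and the values below come from the 2 H3K27ac lists, made with the same antibody clone. The sources used here do not say how the macrophages were obtained, and the labelled cell types were not checked against marker genes, because hg19 positions were at hand for the lectin windows only. With 1 library per cell type there is no replicate and no test, and an interval given below covers counting error only.

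C-type lectin receptors are cell-surface proteins with which monocytes, macrophages, neutrophils and dendritic cells bind sugars and lipids of microbes and of damaged cells. Some activate the cell through the kinase SYK, either by a tyrosine motif in their own tail or by pairing with an adaptor that carries one. Others carry an inhibitory tyrosine motif that recruits phosphatases. Most of these genes lie in clusters on the short arm of chromosome 12, next to lectin-like receptors of natural killer cells. H3K27ac, acetylation of histone H3 at lysine 27, marks active promoters and enhancers.

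Of the 7 genes, 3 had a promoter in the RefSeq promoter table (GRCh38.p14), which gives the sequence directly before the gene start. All 3 are printed, and they were not chosen by their peaks. CLEC4E and CLEC5A belong to windows with M2 peaks and no THP-1 peak, and CLEC12A to a window with a peak in both lists. Capitals mark the letters GAGGAA or their reverse complement, the core bound by PU.1 (SPI1), the ETS factor of myeloid cells. The 250 bases lie at chr12:8540906-8541155 (minus strand), chr7:141946975-141947224 (minus strand) and chr12:9971159-9971408 (plus strand) of GRCh38.p14, a build other than that of the peaks, so whether a peak covers them was not determined.
CLEC4E: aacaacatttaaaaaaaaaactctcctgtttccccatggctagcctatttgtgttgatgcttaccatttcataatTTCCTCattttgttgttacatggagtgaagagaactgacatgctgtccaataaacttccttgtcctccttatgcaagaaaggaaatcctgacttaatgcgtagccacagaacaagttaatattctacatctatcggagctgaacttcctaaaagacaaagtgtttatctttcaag
CLEC5A: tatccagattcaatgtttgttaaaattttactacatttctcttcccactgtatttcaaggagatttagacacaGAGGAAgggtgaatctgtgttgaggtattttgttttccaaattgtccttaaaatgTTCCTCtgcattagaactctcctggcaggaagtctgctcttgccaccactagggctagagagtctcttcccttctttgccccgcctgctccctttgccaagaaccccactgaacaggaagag
CLEC12A: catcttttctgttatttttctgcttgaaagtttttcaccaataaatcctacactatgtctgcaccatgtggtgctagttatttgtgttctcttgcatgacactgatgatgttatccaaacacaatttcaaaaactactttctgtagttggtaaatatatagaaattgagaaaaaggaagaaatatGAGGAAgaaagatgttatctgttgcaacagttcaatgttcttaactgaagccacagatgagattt

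The PU.1 core was found 1 time in the CLEC4E, 2 times in the CLEC5A and 1 time in the CLEC12A promoter, on either strand, and 23.4% of 27305 promoters of the same length hold it. The other letters searched on both strands were TTGCNNAA for C/EBP, TGANTCA for AP-1, ATGGCG for YY1 and TATAAA for a TATA box. Of these, only TTGCNNAA matched in the 3 promoters, 1 time in CLEC4E and apart from the PU.1 core, and 9.13% of all promoters hold it. The CLEC4E promoter had 2 CG pairs, that of CLEC5A 1 and that of CLEC12A 0, against a median of 11 over all promoters, and 23.6% of all promoters had at most 2. These matches describe letters in a short stretch and do not show that a factor binds there.

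H3K27ac peaks were present in the M2 list in all 6 windows and in the THP-1 list in 3. The 16 M2 peaks covered 17.7 kb of the 320.0 kb of windows, or 5.52%, and the 3 THP-1 peaks covered 1.25 kb, or 0.392%. The windows of CLEC7A, of CLEC4D with CLEC4E, and of CLEC5A held 11 M2 peaks and 0 THP-1 peaks, and 39.6% of the 50-kb bins of the genome with an M2 peak likewise held no THP-1 peak. Those of OLR1, CLEC4A and CLEC12A held 1 THP-1 peak each, and each of these overlapped an M2 peak. All 3 THP-1 summits and 8 of the 16 M2 summits lay within 10 kb of a window edge, so windows narrowed by 10 kb on each side held 8 M2 peaks and 0 THP-1 peaks. With the M2 list cut to the 31444 peaks of highest -log10 q, the length of the THP-1 list, 7 M2 peaks were left in the windows beside the 3 THP-1 peaks. These M2 peaks covered 12.8 kb, against 1.25 kb in THP-1. M2 then covered at least 2 times as much as THP-1 in 4 windows and in 48.5% of bins with a peak. The reverse held in 1 window. Because the lists come from whole cell populations, fewer cells with the mark and less mark per cell cannot be told apart.

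Most 50-kb bins of the genome with a peak in either list also held more M2 than THP-1 peak sequence. These counts were therefore read against that background. M2 covered at least 2 times as much as THP-1 in 5 of the 6 windows, all but CLEC12A, and in 62.1% of 24091 bins that held a peak. The THP-1 list covered at least 2 times as much as M2 in 0 of 6 windows and in 10.9% of the bins. An M2 peak without any THP-1 peak was found in 3 of 6 windows and in 39.6% of the 22268 bins with an M2 peak. With 6 windows, of 40 to 70 kb, these shares do not set the lectin loci apart from the genome. M2 coverage per kb exceeded that of 93.5% of bins with an M2 peak in the OLR1 window, 71.0% in that of CLEC4D with CLEC4E and 69.6% in that of CLEC7A. It exceeded 46.6% of them in the CLEC5A, 44.2% in the CLEC4A and 16.5% in the CLEC12A window.

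The same holds for single peaks. Of the 16 M2 member peaks, 13 (81.3%, exact binomial interval 54.4 to 96.0) overlapped no THP-1 peak, against 63.0% of all M2 peaks, which lies inside the interval. Of the 3 THP-1 member peaks, 0 lacked an M2 counterpart (interval 0 to 70.8%), against 24.7% of all THP-1 peaks. The intervals treat peaks as independent, although several M2 peaks are close neighbours in the same window, so the M2 interval may be too narrow.

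**Figure D1:**
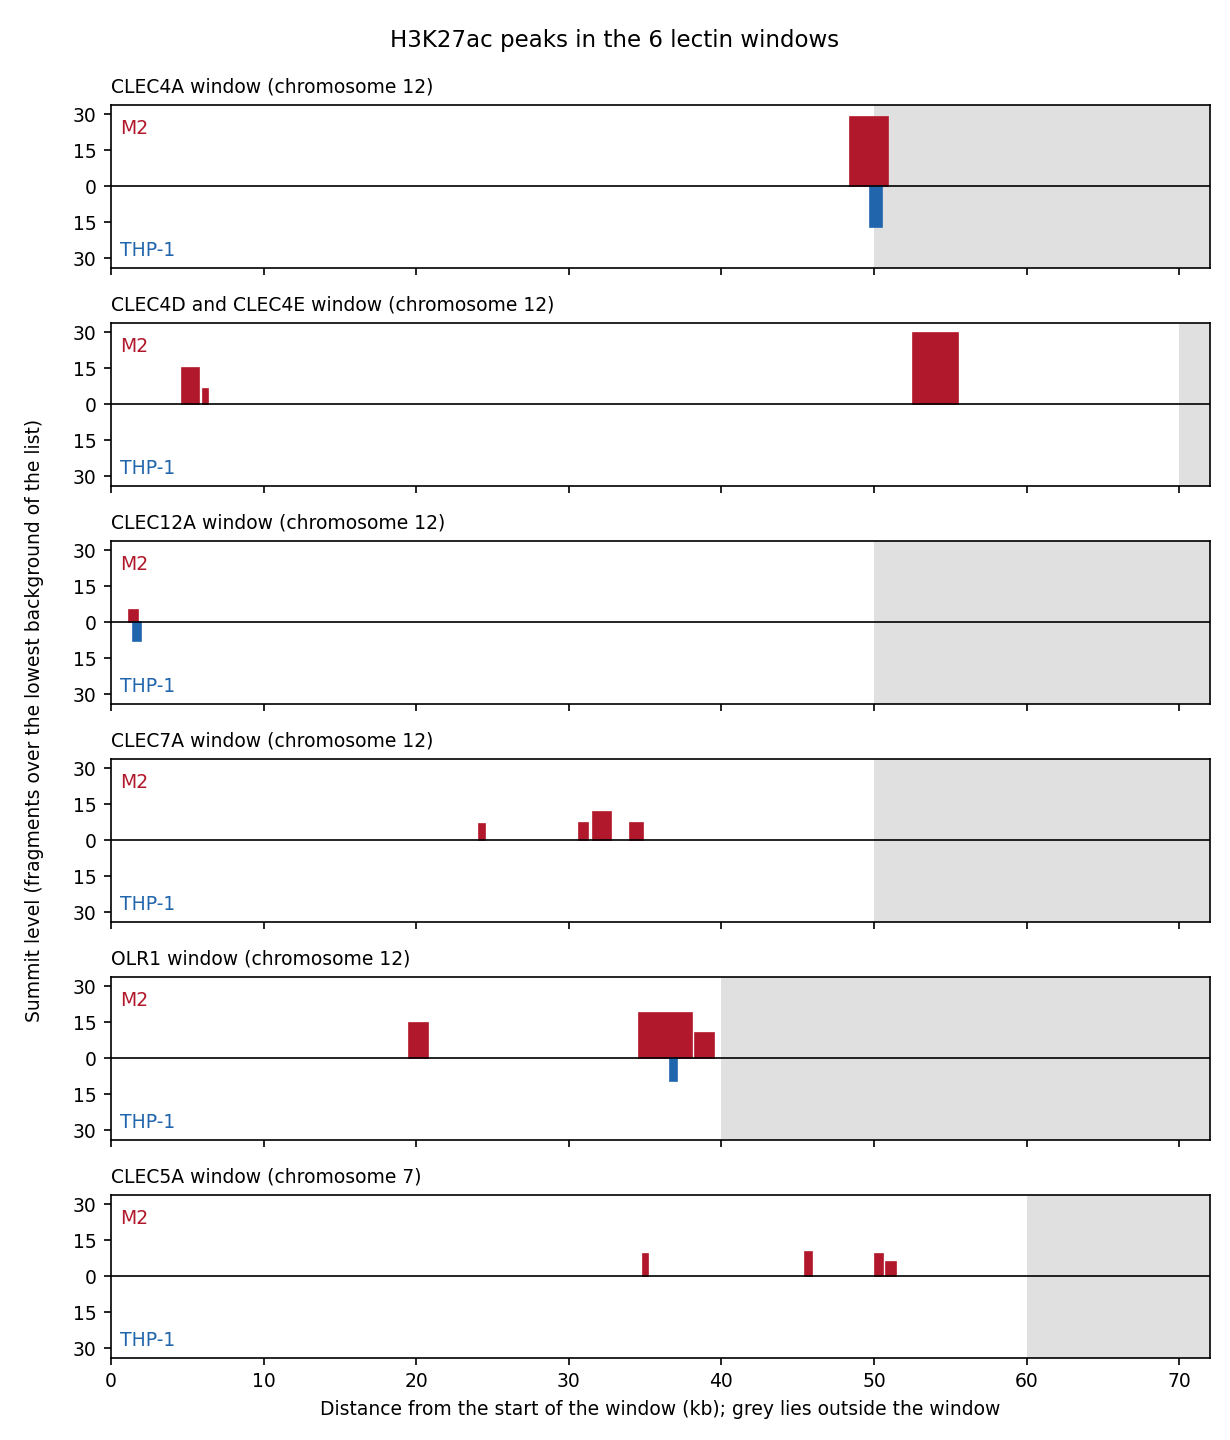
Position, width and summit level of each member peak, by distance from the start of its window in kb, with M2 upwards and THP-1 downwards. The level is the number of fragments over the summit, scaled as in peak calling, over the lowest background of the list. M2 peaks appear in all 6 windows, and the 3 THP-1 peaks lie near window edges in CLEC4A, CLEC12A and OLR1.

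Values of a peak are given below in the same way throughout. Fold enrichment over the local background and the -log10 q are the authors' own values for each peak and rank peaks only within a list. The median peak had a fold of 5.42 and a -log10 q of 13.4 in the M2 list, and 3.67 and 8.41 in the THP-1 list. The fragments over a summit were recovered from the authors' fold and p-value, with a median of 39 in both lists. To set the lists side by side, fragments were multiplied by the pileup scale of peak calling, 0.842 for M2 and 1 for THP-1. The product was divided by the lowest background of the list, taken as its most frequent recovered background, and the result is called the level.

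CLEC7A encodes dectin-1, the receptor for fungal beta-glucans, which signals to SYK through its own tail. Its window (chr12:10250001-10300000) held 4 M2 peaks and 0 THP-1 peaks. The peaks lay at 10274136 to 10274511, 10280641 to 10281289, 10281601 to 10282763 and 10284013 to 10284876. Of these 4, 3 formed a group within which neighbours were 311 and 1249 bp apart, and the first lay 6129 bp before it. The peak at 10281601 was the strongest, 1163 bp wide with a fold of 8.08, a -log10 q of 14.4 and 27 fragments (exact Poisson interval 17.8 to 39.3), above 78.4% of M2 peaks by fold. The others were weaker, with 16, 17 and 17 fragments and folds of 4.93, 5.21 and 5.21, all below the M2 median. The nearest THP-1 peak to any of the 4 lay 51752 bp away. Around the window the THP-1 list had no peak over a run of 115 kb, in which 6 M2 peaks lay wholly. M2 peaks covered 3.05 kb of the window. Both with a -log10 q of at least 10 and in lists of equal length this was 1.16 kb, since only the strongest peak was left.

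CLEC4E encodes Mincle, a receptor for the mycobacterial cord factor, and CLEC4D encodes MCL, which pairs with it, and both use the Fc receptor gamma chain as adaptor. Their shared window (chr12:8640001-8710000) held 3 M2 peaks and 0 THP-1 peaks. The M2 peak at 8692525 to 8695486 was 2962 bp wide, wider than 95.4% of M2 peaks, with a fold of 9.85, a -log10 q of 38.2 and 69 fragments (interval 53.7 to 87.3). At the other end of the window, a peak at 8644670 to 8645784 had 35 fragments and a fold of 10.4, above 88.7% of M2 peaks. A narrow peak of 346 bp beside it, at 8646026, had 15 fragments and a fold of 3.41. The first and last of these peaks were therefore among the stronger member peaks, while the narrow one ranked above only 3.19% of M2 peaks by -log10 q. Peaks covered 4.42 kb of the window. The THP-1 list had no peak over a run of 659 kb around this window, from 8395472 to 9054890, in which the M2 list had 15 peaks covering 15.3 kb. How common THP-1 runs of such lengths are over the genome was not determined, here or at CLEC7A and CLEC5A.

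CLEC5A, also called MDL-1, signals through the adaptor DAP12 (TYROBP) and is known as a receptor for dengue virus on myeloid cells. Its window on chromosome 7 (chr7:141610001-141670000) held 4 M2 peaks and 0 THP-1 peaks. They began at 141644853, 141655463, 141660069 and 141660785 and were 369, 495, 497 and 674 bp wide. Over their summits lay 21, 23, 21 and 14 fragments, with folds of 6.36, 6.93, 6.36 and 4.35. All 4 were narrower than the median M2 peak of 743 bp, and all 4 had a -log10 q below the M2 median, from 4.12 to 11.3. In the M2 list cut to the length of the THP-1 list, 0 of them were left, and the window had no peak in either list. The 60-kb flanks on both sides held 0 peaks in either list. The THP-1 list was empty over 367 kb around the window, where the M2 list held 5 peaks.

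OLR1 encodes LOX-1, a scavenger receptor for oxidised low-density lipoprotein, and follows CLEC7A directly in the RefSeq gene order. Its window (chr12:10300001-10340000) held 3 M2 peaks and 1 THP-1 peak. Peaks covered 5.92 kb of it in the M2 list and 0.477 kb in the THP-1 list. The M2 length was the longest of the 6 windows, but with windows narrowed by 10 kb on each side it was 1.24 kb, below the 3.05 kb of CLEC7A and the 2.96 kb of CLEC4D with CLEC4E. The widest M2 member peak, 3419 bp at 10334633 to 10338051, had a fold of 9.51 and 44 fragments (interval 32.0 to 59.1). It contained the whole THP-1 peak of 477 bp at 10336629 to 10337105, with a fold of 6.27 and 17 fragments (interval 9.90 to 27.2). A further M2 peak at 10338281 with 24 fragments lay 229 bp beyond, and an M2 peak at 10319515 to 10320749 with 34 fragments lay 15879 bp from the THP-1 peak. The shared peak and its neighbour end within 1949 bp of the window's end, and the next coding gene in RefSeq order is TMEM52B, so which gene they belong to was not determined.

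**Figure D2:**
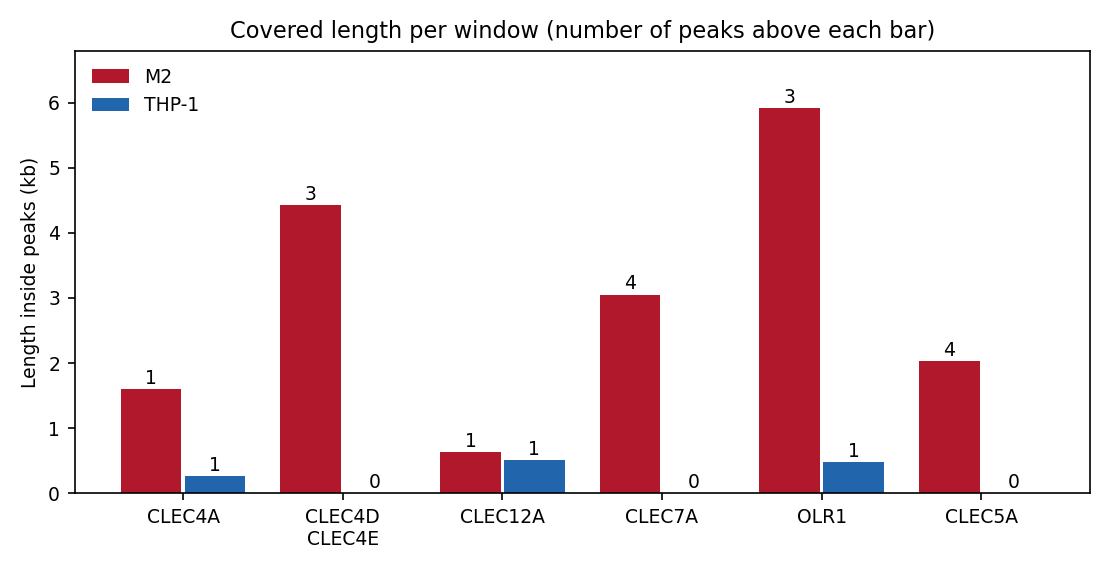
Length inside H3K27ac peaks in each window in kb, M2 in red and THP-1 in blue, with the number of peaks above each bar. M2 exceeds THP-1 in every window, with 5.92 kb against 0.477 kb in OLR1 and 0.632 kb against 0.514 kb in CLEC12A.

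CLEC4A encodes DCIR, an inhibitory receptor with a tyrosine motif that recruits phosphatases. Its window (chr12:8260001-8310000) held 1 M2 peak and 1 THP-1 peak, both at its far edge. The M2 peak at 8308404 to 8310887 was 2484 bp wide and had the highest fold of all member peaks, 11.5, with 67 fragments (interval 51.9 to 85.1). The THP-1 peak at 8309739 to 8310540 was 802 bp wide, with a fold of 6.23 and 30 fragments (interval 20.2 to 42.8), and lay wholly inside the M2 peak. Both reached past the window, by 887 bp in M2 and 540 bp in THP-1. The rest of the window had no peak in either list. The next coding gene in RefSeq order is ZNF705A, and the gene this site belongs to was not determined.

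CLEC12A encodes MICL, an inhibitory receptor of granulocytes and monocytes that is also found on acute myeloid leukaemia blasts. Its window (chr12:10100001-10150000) held 1 M2 peak and 1 THP-1 peak, both at its near edge, with summits 1689 bp (M2) and 1746 bp (THP-1) inside it. The M2 peak at 10101176 to 10101807 was 632 bp wide, with a fold of 3.78, a -log10 q of 3.36 and 12 fragments (interval 6.20 to 21.0), the fewest of any member peak. The THP-1 peak at 10101435 to 10101948 was 514 bp wide, with a fold of 4.94, a -log10 q of 5.90 and 14 fragments (interval 7.65 to 23.5). As levels, the intervals were 2.69 to 9.11 in M2 and 4.34 to 13.3 in THP-1, which overlapped in part. The lists differed by 118 bp in covered length. In lists of equal length the THP-1 peak alone was left. The coding gene before CLEC12A in RefSeq order is KLRF2, and the gene this site belongs to was not determined.

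At the 3 sites with a peak in both lists, the level could be compared. It was 29.1 in M2 and 17.0 in THP-1 at the CLEC4A site, a ratio of 1.71 (exact interval for counting error 1.10 to 2.73). At the OLR1 site it was 19.1 in M2 and 9.63 in THP-1, a ratio of 1.99 (1.11 to 3.71). At the CLEC12A site it was 5.21 in M2 and 7.93 in THP-1, a ratio of 0.657 (0.278 to 1.53), which includes 1. Over 15162 pairs in both lists that overlap each other alone, the median ratio was 0.937 with an interquartile range of 0.647 to 1.38. The CLEC4A and OLR1 ratios lay above that range, but their counting intervals reach into it, and the CLEC12A ratio lay inside it. Summits were 667 bp apart at CLEC4A and 1030 bp at OLR1, so the highest points compared there are different positions within a wide M2 peak, while at CLEC12A they were 57 bp apart.

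**Figure D3:**
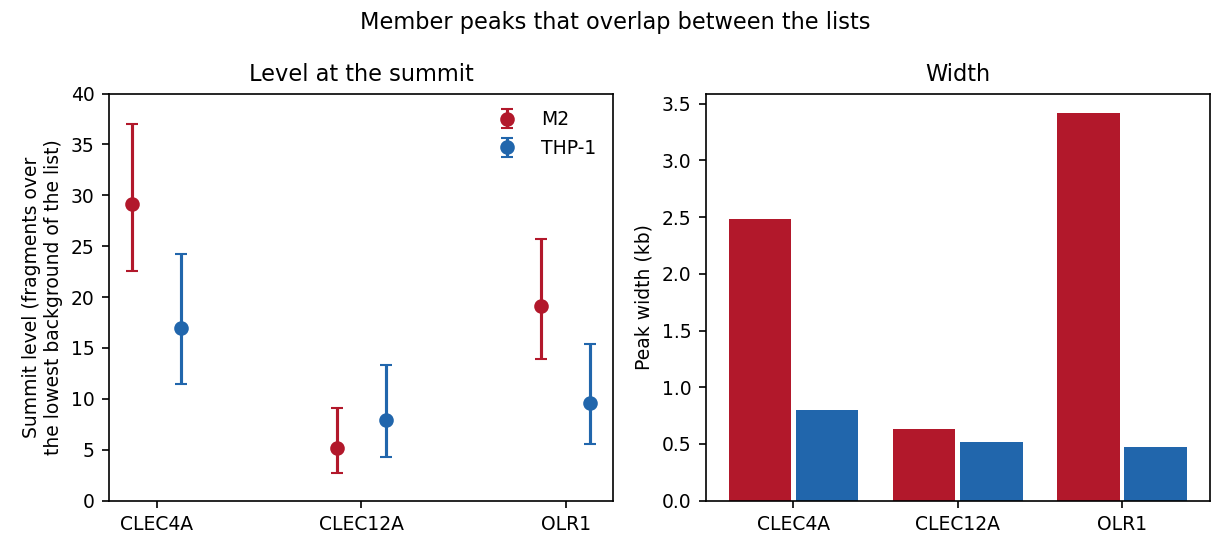
Summit level with exact 95% Poisson intervals (left) and width in kb (right) of the 3 overlapping pairs of member peaks, M2 in red and THP-1 in blue. The M2 point lies above the THP-1 point at CLEC4A (29.1 against 17.0) and OLR1 (19.1 against 9.63) and below it at CLEC12A (5.21 against 7.93), and the intervals of the lists overlap at all 3 sites.

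Within the M2 list most member peaks lay above the list median by fold, but below it by -log10 q and by fragments. Their median fold was 6.36, and 10 of 16 lay above the M2 median of 5.42, but only 5 of 16 lay above the M2 median of -log10 q. Their median width was 769 bp and their median number of fragments 22, against 743 bp and 39 for all M2 peaks. One of the 16, at CLEC4A, was in the highest decile by fold, and 0 were in the highest decile by -log10 q. The 3 THP-1 member peaks had folds of 4.94 to 6.27, all above the THP-1 median, and 2 of 3 had a -log10 q above it.

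**Figure D4:**
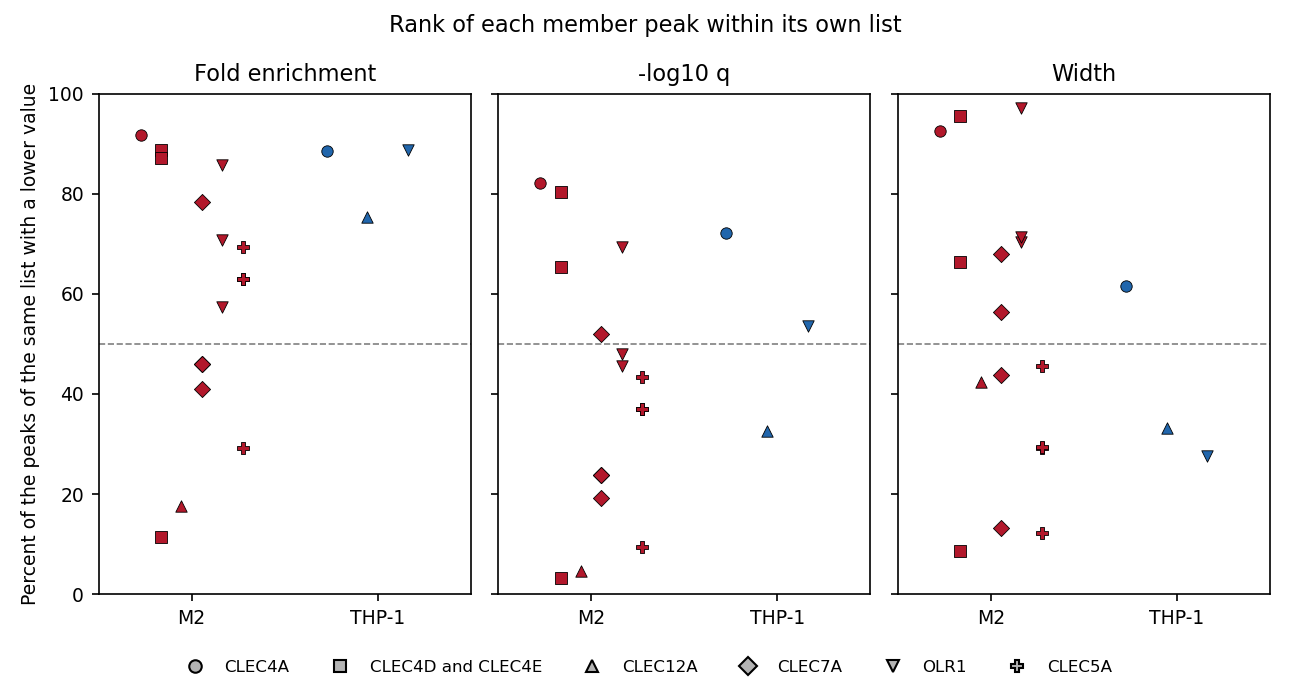
Percent of peaks of the same list with a lower fold enrichment, -log10 q or width than each member peak, one symbol per window, with the list median as a dashed line. The M2 peaks of CLEC4A and of the stronger CLEC4D and CLEC4E sites and the widest OLR1 peak rank high. Of the 16 M2 member peaks, 11 lie below the median of -log10 q.

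Whether a THP-1 signal could have been called at the M2-only sites depends on the fragments a THP-1 peak needed. A THP-1 summit was called with as few as 8 fragments where the background was the lowest, and with no fewer than 19 at a background near the THP-1 median, which was 4.99 times the lowest. At the level of the 13 M2-only member peaks, a THP-1 summit would hold 10.7 to 52.9 fragments. All 13 reach 8, and 4 reach 19: the outer CLEC4D and CLEC4E peaks, the strongest CLEC7A peak and the OLR1 peak at 10319515. For the other 9, all CLEC5A peaks included, a signal of equal level could have gone uncalled in THP-1 cells at a typical THP-1 background. The background at these THP-1 sites could not be recovered, since no peak was called there, and at the 3 THP-1 member peaks it was 1.06 to 2.25 times the lowest.

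The surroundings of the windows also held more M2 than THP-1 peak sequence. In flanks as wide as the windows, M2 peaks covered 3.88% and THP-1 peaks 0.787% of the sequence, a ratio of 4.92. That ratio was 14.1 inside the windows, 2.82 over chromosome 12, 2.28 over chromosome 7 and 2.19 over all chromosomes. The ratio inside the windows rests on 1.25 kb of THP-1 sequence in 3 peaks, so it is imprecise. The flank ratio rests on 4.33 kb of THP-1 sequence, of which 2.75 kb lay in the flank left of the CLEC4A window.

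The M2-only member peaks lay far from THP-1 peaks. More than 50 kb separated 11 of the 13 from the nearest THP-1 peak, against 28.6% of all 35520 M2-only peaks, a distance chosen after the values were seen. Their median distance was 143 kb (range 1.18 to 297 kb), against 20.7 kb over all M2-only peaks. The 11 peaks lie in the windows of CLEC7A, CLEC4D with CLEC4E, and CLEC5A, so they stand for 3 places. The 4 CLEC7A peaks were only just past the 50 kb, at 51752 to 55339 bp, so the count depends on that choice.

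The stretch between the CLEC12A and CLEC7A windows, where RefSeq order places CLEC1B, CLEC12B, CLEC9A and CLEC1A, held higher summits than any member peak in both lists. An M2 peak at 10179767 to 10181529 had a fold of 14.2 and 83 fragments (level 36.1), and overlapped no THP-1 peak. A second M2 peak at 10220588 to 10222470 had 79 fragments and overlapped a THP-1 peak at 10220824 to 10221859 with 51. Their levels were 34.3 in M2 and 28.9 in THP-1, a ratio of 1.19 (0.825 to 1.72), and their summits were 28 bp apart. The highest levels among member peaks were 29.98 in M2 and 17.0 in THP-1.

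**Figure D5:**
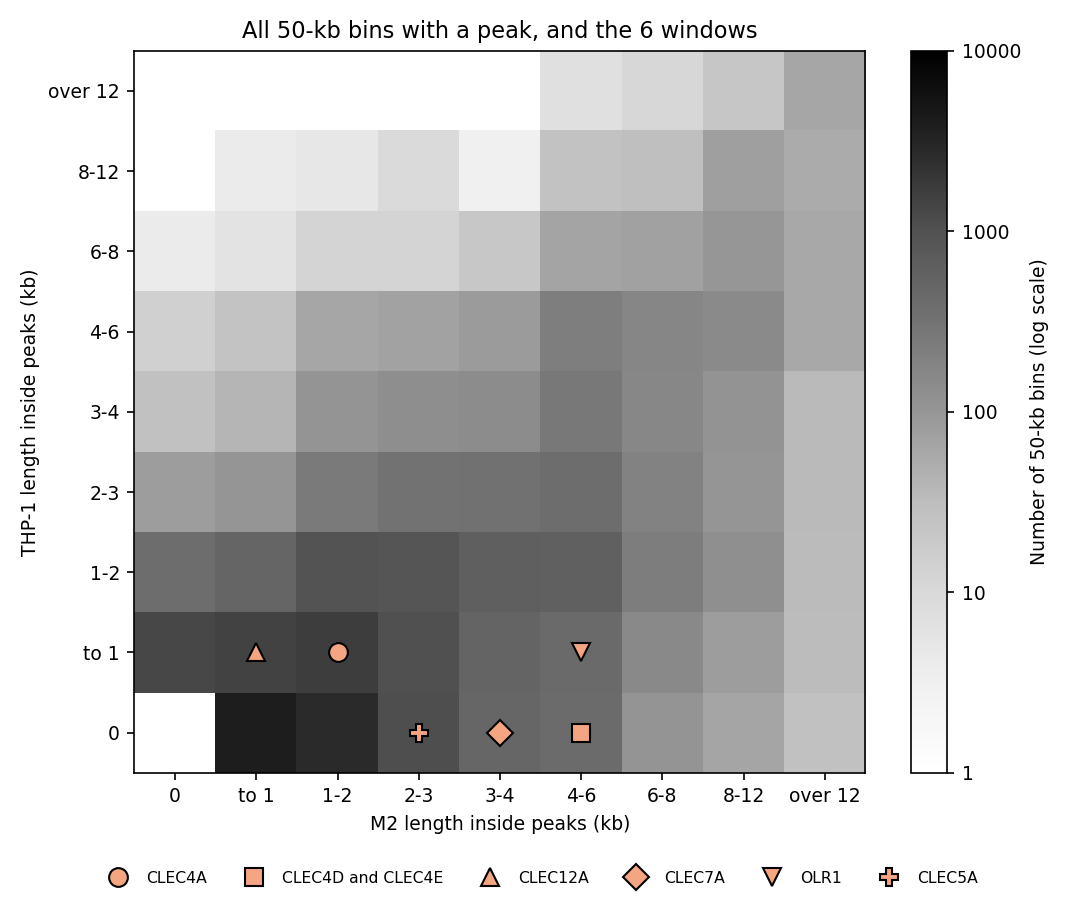
All 50-kb bins with a peak, by M2 (horizontal) and THP-1 (vertical) length inside peaks in kb, shaded by the number of bins on a log scale, with the 6 windows as symbols. The windows of CLEC4D and CLEC4E, CLEC7A and CLEC5A lie in the row of 0 THP-1 sequence, which holds many bins of the genome.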

How the data were processed

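The H3K27ac libraries of both cell types were sequenced as paired ends, per the labels' protocols. The submitters' processing notes name Bowtie2, MACS2 2.1.0 and hg19, without settings or the use of input as control. Each peak's fold enrichment ratio, its -log10 p, its -log10 q and its score (not used further) were deposited by the authors in narrowPeak columns. Peak names are numbered from above 1 in both lists, and the earlier entries are not analysed here, nor is the Y chromosome.

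Fragments were recovered by solving MACS2's fold and Poisson p-value together, with a pileup scale of 0.842 for M2 and 1 for THP-1. They are an inference, with a single whole-number solution (within 0.02) for 55447 M2 and 30390 THP-1 peaks. The lowest backgrounds, in scaled fragments, were 1.94 in M2 and 1.77 in THP-1. Each was set as the most frequent recovered background of its list. Solutions more than 1% below it were dropped before single solutions were counted. On 2662 simulated unscaled peaks 98.0% had a single solution, and on 2567 simulated at a scale of 0.8 it was 98.2%. In both runs 100% of the single solutions were right. The peaks were simulated from the same model that is solved, so these runs cannot show that the model fits the lists.

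An overlap of 1 bp counted as shared, and covered length ended at window edges. Intervals are exact 95% binomial or Poisson intervals. All 7 genes and their peaks are named, and other genes only as neighbours in RefSeq order. The genes and windows were chosen with earlier results of these data known. Lists of signalling partners and marker genes were not used here, for want of hg19 positions. Alternatives covered a stricter q, equal list lengths, window width, sharing, joined peaks, bins, fold and flanks. Python 3.11.15, numpy 2.4.6, pandas 2.3.3 and scipy 1.17.1 were used.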

Additional observations from a re-analysis of the deposited data

How the results depend on the processing

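Of 76 values recomputed under another setting, 60 stayed within 1.5 times the reported value or inside its interval, 15 moved beyond and 1 changed direction. The 76 leave out the difference in covered length where a window lost its peaks in both lists. These cases were CLEC12A under the stricter q, CLEC4A and CLEC12A in narrowed windows, and CLEC5A in lists of equal length. Keeping only peaks with a -log10 q of 10 or more, the windows held 8 M2 peaks and 1 THP-1 peak, which covered 0.262 kb, and the CLEC12A window had none in either list. With windows narrowed by 10 kb on each side there were 8 M2 peaks over 8.11 kb, 0 THP-1 peaks over 0 kb and a shared M2 share of 0%, because all 3 THP-1 summits and 8 of 16 M2 summits lie within 10 kb of an edge. In lists of equal length, 31444 peaks each by -log10 q, 7 M2 peaks were left and 0 of them in the CLEC5A window, and THP-1 was at least 2-fold higher in 1 window. That window was CLEC12A, which kept its THP-1 peak only, and M2 minus THP-1 covered length became -0.514 kb. Widening the windows, the definition of sharing, joining peaks, bins of 100 kb, a fold of 1.5 and flanks of 100 kb moved no value beyond these limits. No paired analysis was possible because each cell type has 1 H3K27ac library. The M2 minus THP-1 covered length also moved at CLEC7A and CLEC5A under the stricter q (1.16 and 0.495 kb), at CLEC7A in equal lists (1.16 kb) and at OLR1 and CLEC5A in narrowed windows (1.24 and 0.864 kb). Whether depth left THP-1 signal uncalled at M2-only peaks was not tested: all 13 reach the THP-1 minimum at the lowest background and 4 reach it near the median.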

Other observations

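The local background under the M2 member peaks was low. It equalled the lowest of the list, within 1%, at 10 of 16 peaks, all 4 CLEC7A and all 4 CLEC5A peaks included, and at 13.5% of all M2 peaks with a single solution. At such a background a given number of fragments gives a higher fold, and the CLEC5A peaks with 21 to 23 fragments had folds of 6.36 to 6.93, above the M2 median fold on fewer fragments than the median of 39. The part of the background in the M2-only calls was not tested.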
